A study of Homo sapiens with 8 samples.

Results

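The 37 genes described here encode the coagulation and fibrinolysis system. They were taken by gene symbol: 17 procoagulant factors, 10 anticoagulants, 8 genes of fibrinolysis and its inhibitors, and 2 genes of vitamin K dependent modification. Of the 37, 34 were among the 16169 genes listed in at least 1 of the deposited tables. F9, F13A1 and VWF were in neither, and PLAT, SERPINC1, TFPI2 and THBD were listed only in the knockout table. The tables leave out transcripts with a sum under 10 counts over their 4 libraries, so a gene that is not listed was below that limit and was not necessarily at 0.

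RNA was sequenced from Hep3B, a human hepatocellular carcinoma line, in 8 libraries, with 2 libraries for each of 4 conditions. Untransfected Hep3B cells of WT genotype were compared with Hep3B cells labelled SOX4 knockout. Hep3B cells transfected with a scramble siRNA were compared with Hep3B cells transfected with STAT6 siRNA. According to the study's methods the knockout lines, a pair, were made with CRISPR/Cas9 and grown with puromycin, which is not stated for the WT cells, so knockout, puromycin and line cannot be told apart. The study's methods name knockout lines #1 and #2 for the deposited RNA sequencing data. Whether the libraries numbered 1 and 2 are those lines is not stated in the labels, nor are the dose and duration of the siRNA. The comparisons ask which transcripts depend on SOX4, a transcription factor with an HMG box, and on STAT6, the transcription factor that acts downstream of interleukin-4.

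Hepatocytes make most of the clotting proteins of plasma. In the cascade, tissue factor and the contact factors activate a chain of serine proteases that ends in thrombin, which cleaves fibrinogen to fibrin. Antithrombin, heparin cofactor II, protein C with protein S, and tissue factor pathway inhibitor restrain the cascade, while plasmin dissolves fibrin and is itself held back by antiplasmin and other inhibitors. Several of the factors need carboxylation of glutamate residues by a vitamin K dependent enzyme in the endoplasmic reticulum.

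The libraries held between 16266282 and 25353113 expected counts. Values per library are given as CPM, counts scaled to a common library size with trimmed-mean (TMM) factors within a table, so levels are not compared across the 2 tables. SOX4 was at 799 and 266 CPM in Hep3B libraries 1 and 2 and at 298 and 302 CPM in the libraries labelled SOX4 knockout, with overlap. Its transcript level therefore did not check the knockout label, and those libraries are named by their label throughout. STAT6 was at 42.5 and 31.4 CPM with scramble siRNA and at 9.92 and 5.98 CPM with STAT6 siRNA, where both libraries were lower. The libraries labelled SOX4 knockout also had less STAT6, at 2.76 and 2.2 CPM against 32 and 13.2 CPM. The labels do not say that the libraries come from separate cultures, so the p-values measure the spread between these libraries. That spread may be technical or, for the knockout, may include a difference between lines. All 12 hepatocyte markers checked, among them ALB, APOB and HNF4A, were listed in both tables. Of 8 endothelial, 6 megakaryocyte and platelet, and 6 macrophage markers, 2, 2 and 2 were listed in the knockout table, and CDH5, TIE1, PF4, PPBP, CD163 and CSF1R were not.

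In unperturbed Hep3B cells, levels per transcript length, in CPM per kilobase, were highest for TFPI at 79.8, VKORC1 at 67.5, SERPINA5 at 55.2, F10 at 33.9 and FGA at 23.9, each as the mean of the 2 libraries. The ranks depend on the transcript lengths used, which are means over matched transcripts, 1096 bases for TFPI and 998 for VKORC1. TFPI encodes tissue factor pathway inhibitor, VKORC1 the vitamin K epoxide reductase subunit that is the target of warfarin, SERPINA5 the protein C inhibitor, F10 factor X and FGA the alpha chain of fibrinogen. The 2 Hep3B libraries were far apart for several of these: SERPINA5 was at 99.7 and 10.8 CPM per kilobase and TFPI at 125 and 34.7, while VKORC1 was at 84.3 and 50.8. The order was not the same in both libraries, the ranges overlapped, and in library 2 the next members were F7 at 17.8 and GGCX at 17.5 CPM per kilobase, above FGA at 16.4 and SERPINA5. The lowest listed members were THBD, at 0 counts in both Hep3B libraries, TFPI2 at 0.0466 CPM per kilobase and PLG at 0.0489 CPM per kilobase. These encode thrombomodulin, a second Kunitz-type inhibitor and plasminogen.

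In the libraries labelled SOX4 knockout, 5 members were called higher: F2, FGB, SERPIND1, SERPINF2 and HRG. They encode prothrombin, the fibrinogen beta chain, heparin cofactor II, alpha-2-antiplasmin and histidine-rich glycoprotein, so both clot-forming and clot-limiting proteins were among them. These are 5 of the 29 members tested, called at an adjusted p below 0.05 in the quasi-likelihood test of edgeR, adjusted over all genes by the Benjamini-Hochberg method, beside 4.5% of all 14415 genes called higher and 5.89% called in either direction. HRG, with 12 and 6 counts in Hep3B, passed the count filter through the knockout libraries, where it was high, so its call has that limit. No member was called lower, and the lowest log2 fold change was -0.89. The fold change was above 0 for 26 of the 29, beside 50.4% of all genes, and the median log2 fold change was 1.57, beside 0.00818 for all genes tested. At an unadjusted p below 0.05 there were 18 members, all of them higher, where 26% of all genes passed in either direction. Because the members were chosen with earlier results of these data known, their shares beside all genes, here and below, are not an independent comparison. The number of calls, for members and for all genes, changed when a library was left out. With library 1 or library 2 labelled SOX4 knockout left out, 0 members were called, beside 0.493% and 0.14% of all genes, and 11 and 16 members had an unadjusted p below 0.05. The log2 fold changes of the 5 members in these fits were 2.65 and 2.6 for F2, 3.9 and 4.82 for HRG, 2.64 and 4.06 for SERPINF2, 1.57 and 3.07 for FGB and 2.08 and 3.3 for SERPIND1. With Hep3B library 1 left out 14 members were called, beside 15.3% of all genes, and with Hep3B library 2 left out 9, beside 8.89%, the 5 above among them both times. Over the alternatives tried, F2 was called in 12 of 14, HRG in 11 of 13, FGB and SERPINF2 in 11 of 14 each and SERPIND1 in 8 of 14. DESeq2 called 13 members, beside 15% of all genes.

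**Figure D1:**
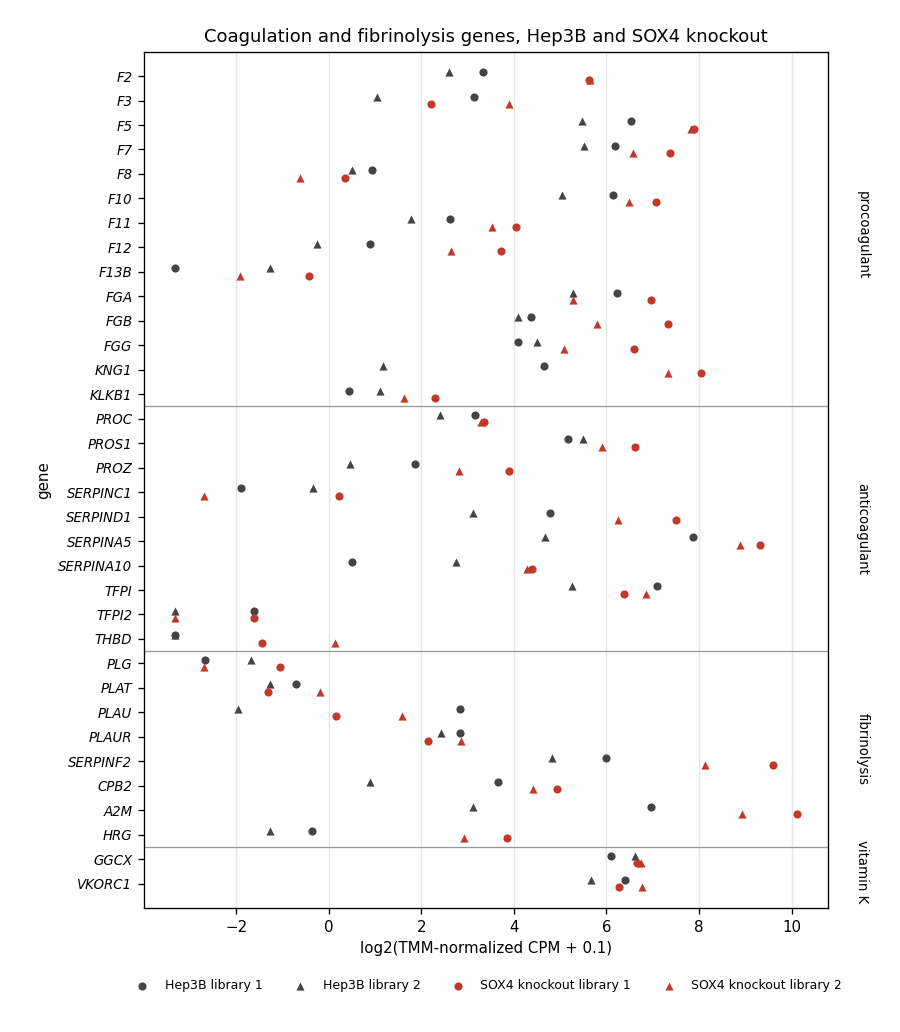
Level of each of the 34 listed members in the 4 libraries of the knockout table, as log2(TMM-normalized CPM + 0.1), where 0 counts lie at the left edge. Circles are libraries 1 and triangles libraries 2, with Hep3B in grey and SOX4 knockout in red. For 21 of the 29 members tested both red symbols lie above both grey ones, and for many members the 2 grey symbols are far apart.

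Prothrombin, encoded by F2 (chr11:46719166-46739509, hg38), is the precursor of thrombin. F2 was at 10.0 and 5.96 CPM in Hep3B libraries 1 and 2 and at 49.3 and 50 CPM in the libraries labelled SOX4 knockout. Both knockout libraries were above both Hep3B libraries and close to each other, with a log2 fold change of 2.63 (SE, the standard error, 0.41, adjusted p = 0.0216, edgeR), or 6.2-fold. Histidine-rich glycoprotein, from HRG (chr3:186665952-186678241), is a plasma protein that binds heparin, plasminogen and fibrinogen. HRG had 12 and 6 counts in Hep3B against 381 and 136 counts in the libraries labelled knockout, that is 0.681 and 0.316 CPM against 14.4 and 7.48 CPM. The groups were far apart, and the log2 fold change of 4.45 (SE 0.70, adjusted p = 0.0216, edgeR) rests on a control level of few counts. HRG passed the count filter through the libraries labelled knockout, and was not tested where 10 counts in each library were asked for.

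SERPINF2 (chr17:1742836-1755266) encodes alpha-2-antiplasmin, the main inhibitor of plasmin in plasma. Its levels were 63.1 and 28.2 CPM in Hep3B and 774 and 282 CPM in the libraries labelled SOX4 knockout, where the lower knockout library was still well above the higher Hep3B library. The log2 fold change was 3.53 (SE 0.64, adjusted p = 0.0283, edgeR). FGB (chr4:154562980-154572764) encodes the beta chain of fibrinogen. FGB was at 20.7 and 17.0 CPM in Hep3B and at 162 and 55.6 CPM in the libraries labelled knockout. The Hep3B libraries were alike and the knockout libraries were not, and the log2 fold change was 2.53 (SE 0.54, adjusted p = 0.0413, edgeR). SERPIND1 (chr22:20774095-20787721) encodes heparin cofactor II, which inhibits thrombin. It was at 27.5 and 8.55 CPM in Hep3B and at 180 and 75.7 CPM in the libraries labelled knockout, without overlap. Its log2 fold change was 2.82 (SE 0.65, adjusted p = 0.0494, edgeR), just inside the threshold.

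The sequences before the start of 4 of these 5 genes are shown so that a reader can see what the stretches hold. They come from RefSeq (GRCh38.p14), are written 5′ to 3′ on the strand of the gene, and end just before the first base of the deposited transcript, and a SERPINF2 stretch was not used here. Capitals mark matches to the motifs searched on both strands, and lower case the rest.
HRG, chr3:186665764-186665951, plus strand: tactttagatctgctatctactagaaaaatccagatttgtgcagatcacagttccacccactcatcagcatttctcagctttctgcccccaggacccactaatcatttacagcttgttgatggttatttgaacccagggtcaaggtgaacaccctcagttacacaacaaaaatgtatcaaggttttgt
F2, chr11:46718963-46719165, plus strand: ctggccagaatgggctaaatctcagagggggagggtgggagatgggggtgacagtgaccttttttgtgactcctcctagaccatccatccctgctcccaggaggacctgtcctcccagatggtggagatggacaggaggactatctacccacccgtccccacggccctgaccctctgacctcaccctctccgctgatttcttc
FGB, chr4:154562730-154562979, plus strand: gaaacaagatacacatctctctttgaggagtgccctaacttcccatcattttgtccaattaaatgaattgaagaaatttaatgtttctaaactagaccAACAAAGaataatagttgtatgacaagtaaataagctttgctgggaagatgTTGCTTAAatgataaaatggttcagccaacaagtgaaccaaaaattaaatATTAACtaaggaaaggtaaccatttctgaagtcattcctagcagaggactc
SERPIND1, chr22:20773863-20774094, plus strand: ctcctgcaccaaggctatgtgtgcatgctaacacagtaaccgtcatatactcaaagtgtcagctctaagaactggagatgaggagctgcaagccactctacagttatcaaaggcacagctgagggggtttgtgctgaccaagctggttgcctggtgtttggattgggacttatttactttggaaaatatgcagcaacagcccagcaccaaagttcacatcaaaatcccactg
In FGB the capitals mark, from left to right, AACAAAG, a form of the core bound by SOX proteins, then the C/EBP motif read on the opposite strand, and ATTAAC, the opposite-strand reading of GTTAAT from the HNF1 site. The first lies from -152 to -146 and the last from -51 to -46, counted from the RefSeq start. The other 3 stretches shown held no match to the motifs searched. F2 had a further GTTAAT match from -34 to -29, past the end of the stretch shown. The search covered the 250 bases before a start in 35116 RefSeq windows. Among these windows AACAAAG was found in 4.5%, AACAATG, the other SOX form searched, in 2.87%, TTC and GAA with 4 bases between them, for STAT6, in 5.38%, GTTAAT in 6.23%, CAAAGTC for HNF4 in 2.91% and TTNNGCAA for C/EBP in 9.05%. In the 37 windows of the 31 members that the table holds, these motifs were found in 4, 2, 0, 8, 3 and 10 windows. The SOX4 consensus given in the study has further forms that were not searched, such as ATCAAAG, which is in the SERPIND1 stretch. A match describes letters only, and binding was not analysed here.

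Among the other procoagulant factors tested, none was called, and 10 of the 13 were above both Hep3B libraries in both knockout libraries, FGB and F2 included, beside 30.6% of all genes tested. F12, the contact factor XII, was at 1.76 and 0.738 CPM in Hep3B and at 13.1 and 6.1 CPM in the libraries labelled knockout. It did not overlap between groups, and its log2 fold change of 2.94 (SE 0.69, adjusted p = 0.0501, edgeR) lay just outside the threshold. KNG1 encodes kininogen, the contact cofactor from which bradykinin is released, and lies 39.1 kb from HRG on chromosome 3. KNG1 was at 25.1 and 2.16 CPM in Hep3B and at 262 and 160 CPM in the libraries labelled knockout. Both knockout libraries were higher, but the Hep3B libraries differed so much from each other that the log2 fold change of 3.95 had a standard error of 0.98 and an adjusted p of 0.0576 with edgeR. It was 6.54 without Hep3B library 1 and 3.06 without Hep3B library 2, and was called in both of these fits.

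F5, the cofactor that speeds thrombin formation, was at 92.3 and 44.0 CPM in Hep3B and at 236 and 228 CPM in the libraries labelled knockout. F7, the protease that binds tissue factor, was at 72.9 and 45.6 CPM against 166 and 95.2 CPM. In both genes the groups did not overlap. F10, which encodes factor X, the protease that cleaves prothrombin, was at 70.2 and 32.7 CPM against 135 and 89.4 CPM, with a log2 fold change of 1.13 (SE 0.46, adjusted p = 0.171, edgeR). F11, the factor XI zymogen, was at 6.07 and 3.32 CPM against 16.4 and 11.5 CPM. KLKB1, the plasma prekallikrein gene next to F11 on chromosome 4, was at 1.25 and 2.06 CPM against 4.81 and 2.97 CPM. Each of these 3 genes had both knockout libraries above both Hep3B libraries.

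F8 and F3 did not share this order. F8, the cofactor lacking in haemophilia A, was at 1.82 and 1.32 CPM in Hep3B and at 1.17 and 0.55 CPM in the libraries labelled knockout, and was the 1 member with both knockout libraries below both Hep3B libraries, beside 27.4% of all genes tested. F3, which encodes tissue factor, was at 8.68 and 1.95 CPM in Hep3B and at 4.51 and 14.7 CPM in the libraries labelled knockout, so the groups overlapped and the libraries numbered 1 and 2 went opposite ways. F13B, the carrier subunit of factor XIII, was not tested, with between 0 and 17 counts per library.

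The 3 fibrinogen chains are encoded side by side on chromosome 4, in the order FGB, FGA, FGG, with 10.4 and 13.4 kb between neighbours, and the assembled protein holds equal numbers of each chain. FGA was at 74.5 and 38.8 CPM in Hep3B and at 125 and 38.6 CPM in the libraries labelled knockout. These overlapped, with a log2 fold change of 0.53 (SE 0.58, adjusted p = 0.604, edgeR). FGG, the gamma chain, was at 16.9 and 22.6 CPM against 97.2 and 33.9 CPM, without overlap. Per kilobase, the FGB level was 0.334 and 0.525 of the FGA level in the Hep3B libraries and 1.56 and 1.73 of it in the libraries labelled knockout. The FGG level was 0.311 and 0.793 of the FGA level against 1.06 and 1.2. Both ratios were above those of Hep3B in both knockout libraries, and no test was run on them. In the siRNA table the FGB ratio was 0.432 and 0.615 with scramble siRNA and 0.457 and 0.64 with STAT6 siRNA, which overlapped.

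The forms of these transcripts were estimated by the authors' quantification from overlapping reads and are uncertain. The shorter alpha chain form made up 90.7% and 87.8% of FGA counts in Hep3B, against 85.0% and 87.1% in the libraries labelled knockout. The gamma-A form was 59.7% and 72.1% of FGG in Hep3B, against 74.1% and 71.8% in the libraries labelled knockout, which overlapped. KNG1 gives high and low molecular weight kininogen, of which the first is the cofactor of the contact system. The high molecular weight form was 43.0% and 7.71% of KNG1 counts in Hep3B, against 62.4% and 52.0% in the libraries labelled knockout. It was higher in both of the latter, and the lower Hep3B share comes from the library with the fewest KNG1 counts.

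Among the 10 anticoagulants, 8 were tested and SERPIND1 was the 1 called higher, beside 4.5% of all genes tested. Of the 8, 6 had both knockout libraries above both Hep3B libraries, beside 30.6% of all genes tested. SERPINA10, which encodes the protein Z dependent protease inhibitor, was at 1.31 and 6.59 CPM in Hep3B and at 20.9 and 19.3 CPM in the libraries labelled knockout. PROZ, its cofactor, was at 3.52 and 1.27 CPM against 14.7 and 6.93 CPM. SERPINA5 was at 233 and 25.3 CPM against 643 and 475 CPM, with a log2 fold change of 2.11 (SE 0.87, adjusted p = 0.177, edgeR), and of 4.41 without Hep3B library 1, where it was called, and 1.26 without Hep3B library 2. None of the 3 overlapped between groups, and the Hep3B libraries differed from each other in all of them.

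PROC, the protein C zymogen, was at 8.85 and 5.17 CPM in Hep3B and at 10.2 and 9.73 CPM in the libraries labelled knockout. PROS1, which encodes protein S, was at 36.0 and 44.7 CPM against 98.0 and 60.1 CPM. Both were without overlap, but PROS1 has a near-identical pseudogene, between which an estimate can split reads. TFPI was at 137 and 38.0 CPM in Hep3B and at 83.3 and 116 CPM in the libraries labelled knockout, inside the range of the Hep3B libraries, with a log2 fold change of 0.19 (SE 0.57, adjusted p = 0.864, edgeR). The alpha form made up 90.3% to 98.5% of TFPI counts in these 4 libraries.

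The 3 anticoagulants under 1 CPM in part or all of these libraries were at the limit of the depth. SERPINC1 encodes antithrombin, an abundant protein of liver and plasma, yet had 3 and 13 counts in Hep3B and 28 and 1 counts in the libraries labelled knockout. THBD, a receptor that turns thrombin towards protein C, had 0 and 0 counts in Hep3B and 7 and 18 counts in the libraries labelled knockout. It was not tested, and its level was at least 3.82-fold higher, computed against 3 counts in each Hep3B library. TFPI2 was at 0.227 and 0 CPM in both conditions.

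Of the fibrinolysis genes, 6 of 8 were tested, and SERPINF2 and HRG were called higher, beside 4.5% of all genes tested. The 4 with both knockout libraries above both Hep3B libraries, beside 30.6% of all genes tested, were SERPINF2, HRG, A2M and CPB2, which encode inhibitors or plasma modulators. PLAT and PLG were not tested, PLAU was the only activator gene tested, and a difference between inhibitors and activators was not tested. A2M, the broad protease trap alpha-2-macroglobulin, was at 125 and 8.55 CPM in Hep3B and at 1110 and 488 CPM in the libraries labelled knockout. The groups did not overlap, yet from Hep3B library 1 to library 2 the level fell by 3.85 on the log2 scale, and the log2 fold change of 3.59 (SE 1.1, adjusted p = 0.0948, edgeR) was not called. It was 6.48 without Hep3B library 1 and 2.67 without Hep3B library 2, called both times. CPB2, which encodes the carboxypeptidase that trims plasmin binding sites from fibrin, was at 12.5 and 1.74 CPM against 30.3 and 21.2 CPM, without overlap. Its log2 fold change of 1.85 was not called, and it was called at 3.82 without Hep3B library 1 and was 1.03 without Hep3B library 2.

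The activators overlapped between the groups. PLAU, the urokinase gene, was at 7.09 and 0.158 CPM in Hep3B and at 1.02 and 2.91 CPM in the libraries labelled knockout. PLAUR, its receptor, was at 7.04 and 5.27 CPM against 4.35 and 7.15 CPM. Neither was called, at log2 fold changes of -0.89 for PLAU and -0.10 for PLAUR, and the sign of both turned when Hep3B library 1 was left out, to 3.52 and 0.0621. PLAT, the tissue type activator, ranged from 0.303 to 0.77 CPM, and PLG, the plasminogen gene itself, had between 1 and 10 counts per library in these 4 libraries.

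Neither gene of vitamin K dependent modification was called. GGCX, the gamma-glutamyl carboxylase, was at 68.3 and 98.1 CPM in Hep3B and at 101 and 107 CPM in the libraries labelled knockout, with no overlap. VKORC1, which recycles vitamin K, was at 84.1 and 50.7 CPM against 77.7 and 109 CPM. It overlapped, with a log2 fold change of 0.47 (SE 0.39, adjusted p = 0.480, edgeR). VKORC1 shares 58.1% of its exon bases with a gene on the opposite strand in the GENCODE annotation, and 34.7% with another on its own strand. The strand setting of the counting is not given in the sources used here and would not separate the latter. The VKORC1 counts are therefore uncertain. Smaller shares with the opposite strand apply to F12 at 14.4%, KNG1 at 15.4%, HRG at 8.83% and PLAU at 31.1%. On the same strand KLKB1 shares 6.81% with another gene, and SERPINA5 2.09% and 1.4%.

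Counted by sums of CPM, the genes of fibrinolysis and its inhibitors together held 216 and 44.8 CPM in Hep3B and 1930 and 810 CPM in the libraries labelled knockout. The procoagulant factors held 402 and 219 against 1270 and 787 CPM, and the anticoagulants 448 and 130 against 1050 and 764 CPM. Each sum was higher in both knockout libraries, and the sums follow their most abundant genes, such as A2M, SERPINF2 and SERPINA5. The anticoagulant sums include SERPINA5, at 233 and 25.3 against 643 and 475 CPM. It encodes the protein C inhibitor, although protein C itself restrains the cascade. Within a pair of libraries with the same number, 21 of the 29 members were higher in the knockout library for both numbers, beside 36.3% of all genes, 1 was lower for both, beside 33.8%, and 7 went opposite ways. The members varied more between the 2 Hep3B libraries, with a median absolute log2 difference of 1.07, than all genes tested did at 0.524.

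Members that lie close together on a chromosome were not chosen for it. With a gap of at most 300 kb, 12 of the 34 listed members fall into 7 neighbouring pairs. F7, F10 and PROZ lie in a row on chromosome 13, SERPINA10 and SERPINA5 on chromosome 14, HRG and KNG1 on chromosome 3, the fibrinogen genes and KLKB1 with F11 on chromosome 4. In the knockout comparison the log2 fold changes of neighbours were 4.45 and 3.95 for HRG and KNG1, 1.14 and 1.13 for F7 and F10, 1.13 and 2.18 for F10 and PROZ, 2.34 and 2.11 for SERPINA10 and SERPINA5, and 1.23 and 1.57 for KLKB1 and F11. FGA, at 0.53, lay between FGB at 2.53 and FGG at 1.73.

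Among 24 other genes of the pathway, taken from a separate list of receptors, cofactors and inhibitors, 21 were tested and 1 was called. Of all genes tested 4.5% were called higher and 5.89% in either direction, so this count is near the share of all genes. The gene called was SERPING1, the gene of C1 inhibitor, which blocks factor XIIa and kallikrein. SERPING1 was at 2.38 and 2.74 CPM in Hep3B and at 98.7 and 95.6 CPM in the libraries labelled knockout, with a log2 fold change of 5.24 (adjusted p = 0.00384, edgeR). None was called lower.

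Markers of other cell types were measured beside these results. Of the 12 hepatocyte markers 3 were called higher in the libraries labelled knockout, APOA1, APOH and TTR, and their summed level was 17200 and 12600 CPM in Hep3B and 54400 and 32700 CPM in those libraries. Of the 6 stromal markers 3 were listed and 2 were called higher, LUM and PDGFRB, and the sum was 4.43 and 7.44 CPM against 101 and 77.4 CPM, of which LUM gave 0.624 and 0.738 against 85.5 and 54.2 CPM. DCN, COL1A2 and ACTA2 were not listed in that table. The endothelial sum was 0.965 and 0.422 CPM against 1.06 and 2.09 CPM, that of platelets 0.794 and 1.64 against 5.42 and 4.61 CPM, and that of macrophages 1.14 and 1.63 against 3.64 and 4.5 CPM. The part of these markers in the members' differences was not tested, and in bulk RNA a change in the share of cells and a change in RNA per cell cannot be told apart.

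**Figure D2:**
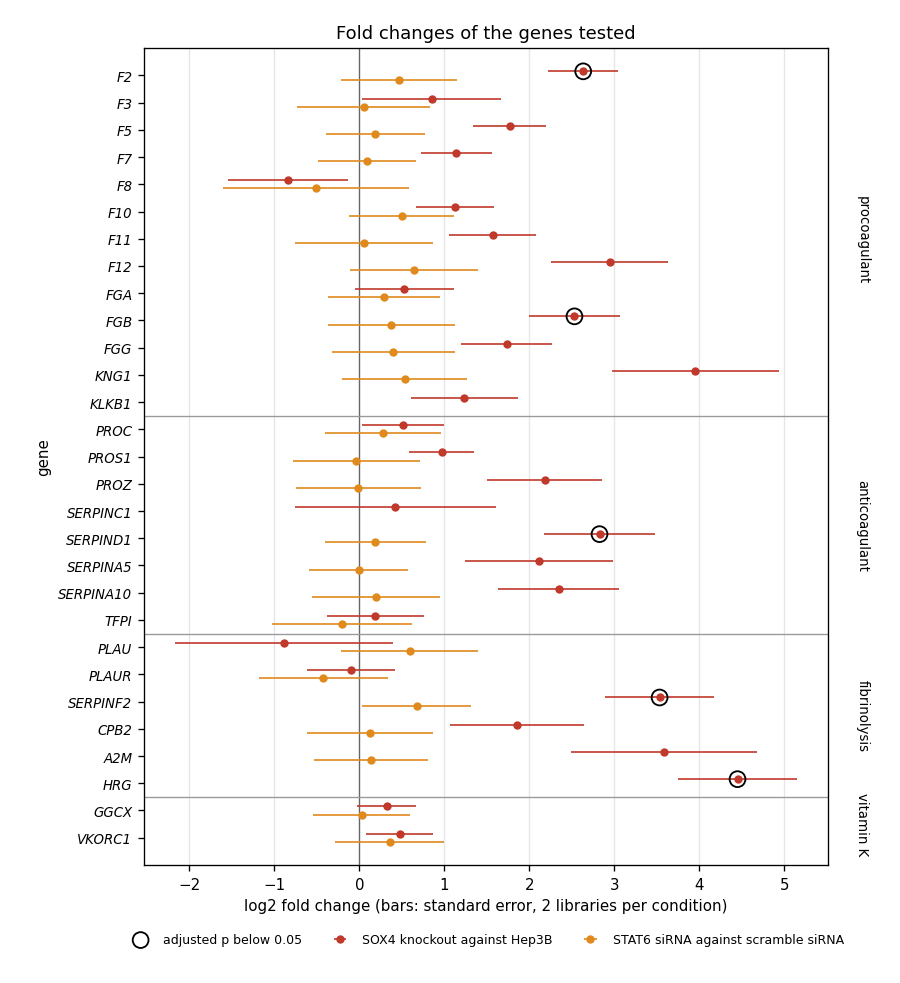
Log2 fold change of each member tested, SOX4 knockout against Hep3B in red and STAT6 siRNA against scramble siRNA in orange, from separate edgeR fits, with bars for the standard error. Open circles mark the 5 members with an adjusted p below 0.05, all of them in the knockout comparison, where 26 of 29 lie above 0, against 20 of 26 in the siRNA comparison.

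With STAT6 siRNA, 0 of the 26 members tested were called by edgeR's quasi-likelihood test, and 0% of all 13554 genes were. STAT6 itself was not called either, at a log2 fold change of -2.22 (SE 0.72), so a lack of calls says little about the members. At an unadjusted p below 0.05 there were 0 members and 0.103% of all genes, and DESeq2 called 0 members. The log2 fold changes ran from -0.51 to 0.68, with a median of 0.188 beside -0.0326 for all genes tested, and 20 of the 26 were above 0 beside 46.3% of all genes. F12 was the 1 member with both STAT6 siRNA libraries above both scramble libraries, at 3.28 and 2.31 CPM with scramble and 5.14 and 3.59 CPM with STAT6 siRNA, beside 2.74% of all genes. No member had both STAT6 siRNA libraries below both scramble libraries, as 5.26% of all genes did. Between libraries of the same number, 12 members were higher with STAT6 siRNA for both numbers, beside 29.3% of all genes, 3 were lower for both, beside 32.7%, and 11 went opposite ways.

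Of the procoagulant factors, F2 was at 44.6 and 21.8 CPM with scramble siRNA and at 62.8 and 29 CPM with STAT6 siRNA. F5 was at 61.9 and 78.7 CPM against 74.8 and 85.3 CPM, and F7 at 106 and 69.4 CPM against 101 and 86.4 CPM. F10 was at 78.9 and 49.0 CPM against 120 and 60.6 CPM, with a log2 fold change of 0.50 (SE 0.62, adjusted p = 1, edgeR). In these 4 genes the groups overlapped. KNG1 was at 9.38 and 11.3 CPM against 10.2 and 19.7 CPM, with a log2 fold change of 0.53 (SE 0.74, adjusted p = 1, edgeR). F3 was at 1.41 and 3.02 CPM against 1.69 and 2.89 CPM, and F11 at 1.53 and 3.42 CPM against 1.4 and 3.71 CPM. All 3 overlapped. F8 and KLKB1 were under 1 CPM in all 4 libraries.

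The fibrinogen chains differed mainly between libraries 1 and 2. FGA was at 135 and 310 CPM with scramble siRNA and at 135 and 407 CPM with STAT6 siRNA. FGB was at 48.5 and 159 CPM against 51.4 and 218 CPM, and FGG at 25.7 and 59.2 CPM against 25.4 and 86.3 CPM. In each chain the library numbered 2 was higher in both conditions, and the conditions overlapped.

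Of the anticoagulants, SERPIND1 was at 68.2 and 47.1 CPM with scramble siRNA and at 71.0 and 60.2 CPM with STAT6 siRNA. SERPINA5 was at 387 and 213 CPM against 364 and 231 CPM, and PROC at 32.1 and 19.0 CPM against 40.5 and 21.5 CPM. PROS1 was at 18.9 and 50.2 CPM against 16.9 and 50.4 CPM, and TFPI at 12.3 and 43.9 CPM against 9.77 and 38.7 CPM. PROS1 and TFPI were higher in the libraries numbered 2, where SERPINA5 and PROC were lower. PROZ was at 2.6 and 2.53 CPM against 2.79 and 2.31 CPM, and SERPINA10 at 3.39 and 2.44 CPM against 2.5 and 4.17 CPM. All of these overlapped.

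Of the fibrinolysis genes, SERPINF2 had the largest log2 fold change of any member in this comparison. It was at 200 and 85.5 CPM with scramble siRNA and at 323 and 134 CPM with STAT6 siRNA, with overlap and a log2 fold change of 0.68 (SE 0.64, adjusted p = 1, edgeR). A2M was at 24.5 and 22.5 CPM against 32.1 and 19.6 CPM, and CPB2 at 11.4 and 10.6 CPM against 8.01 and 15.9 CPM. PLAU was at 2.2 and 0.755 CPM against 2.42 and 2.02 CPM, and PLAUR at 8.54 and 4.58 CPM against 5.95 and 3.84 CPM. None was separate between conditions. HRG was at 0.113 and 0.267 CPM with scramble siRNA and 0 and 0.124 CPM with STAT6 siRNA, and was not tested. GGCX was at 152 and 104 CPM against 148 and 112 CPM, and VKORC1 at 132 and 65.3 CPM against 182 and 71.3 CPM. Both were lower in the libraries numbered 2.

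**Figure D3:**
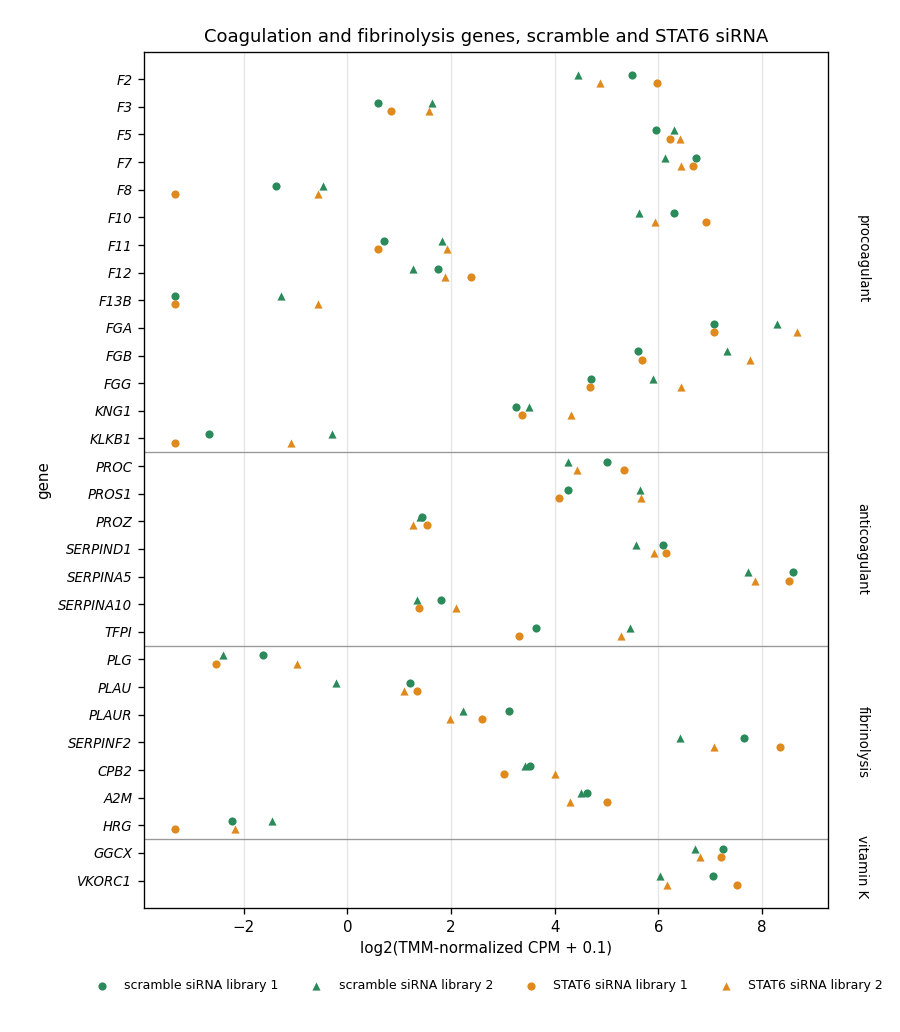
Level of each of the 30 members listed in the siRNA table in its 4 libraries, as log2(TMM-normalized CPM + 0.1), where 0 counts lie at the left edge. Scramble siRNA is green and STAT6 siRNA orange, with circles for libraries 1 and triangles for libraries 2. Circles and triangles of a gene are often further apart than the colours.

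The differences between libraries 2 and 1 in the siRNA table went with the GC content of the transcripts. Over the 26 members tested, Spearman's rho between GC content and the log2 difference was -0.798 for scramble siRNA and -0.861 for STAT6 siRNA, and over all genes it was -0.755 and -0.819. In the knockout table it was -0.125 for Hep3B and 0.0414 for SOX4 knockout over 29 members, and -0.088 and 0.286 over all genes. These are descriptions across genes that share their libraries, and genes are not independent replicates. Members with low GC such as TFPI (37.8%), PROS1 (40.4%), FGG (41.2%) and FGB (41.4%) were higher in the libraries numbered 2 of both siRNA conditions, and SERPINF2 (61.4%), VKORC1 (59.5%) and PROC (59.7%) were lower. With GC content and transcript length entered as offsets, and no term for the library number, 0 members were called in the siRNA comparison and 3 in the knockout comparison, F2, FGB and HRG.

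**Figure D4:**
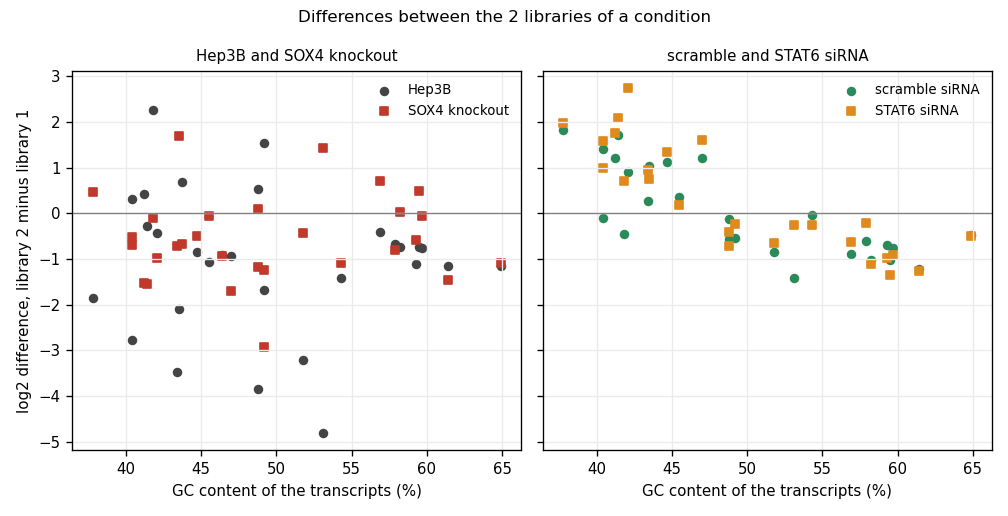
Log2 difference between libraries 2 and 1 of each condition against the GC content of the members' transcripts, for the knockout table on the left and the siRNA table on the right. Each point is a member tested, and the differences fall with GC content on the right in both conditions but not on the left.

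The knockout and siRNA effects have separate controls, so their difference was tested in a fit of all 8 libraries. Of 29 members tested, 0 were called by edgeR, beside 0.0769% of 14313 genes, of which 0.0489% higher and 0.0279% lower. The difference was above 0 for 26 members, beside 45.5% of all genes, and 8 members had an unadjusted p below 0.05 beside 6.56% of all genes. Both counts include HRG, and the first also KLKB1 and F13B. These genes had too few counts to be tested in the siRNA comparison, so the counts have that limit. HRG had 0 to 6 counts per library in the siRNA table and entered this fit through the knockout libraries, so its difference is not given, and the 1 call that DESeq2 made was of HRG. With library 1 of the scramble siRNA left out, edgeR called HRG and KNG1, and with library 2 left out A2M. Differences on the log2 scale were 2.04 for F2, 2.06 for FGB, 2.52 for SERPIND1 and 2.73 for SERPINF2. These are the other 4 members called higher in the knockout comparison. None passed in this fit, which has no term for the library number. KNG1 and A2M, not called in either comparison, had differences of 3.33 each.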

How the data were processed

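The authors deposited 2 tables of expected counts, estimated read counts per RefSeq transcript that were not normalized, 1 table for the knockout and 1 for the siRNA comparison. The submitters' processing notes name STAR, Partek and hg38, and the quantifier and its strand setting are not given in the sources used here. The kit of the labels is a stranded mRNA preparation. No transcript listed sums to fewer than 10 counts in its table. There were 0 columns without a library.

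Counts were summed per gene symbol and rounded to whole numbers. The design had allowed for raw or expected counts, and the same test was used. Each table was fitted with edgeR 4.0.16 in R 4.3.3, with its filterByExpr filter, TMM factors, estimated dispersions and the two-sided test of glmQLFit and glmQLFTest, with Benjamini-Hochberg adjustment over all genes tested and calls at an adjusted p below 0.05. The difference of effects was tested by fitting all 8 libraries together over genes in both tables. Differences between single libraries used a prior count of 2, and levels per kilobase used transcript lengths of GENCODE release 29. The steps were tested on simulated counts. Library totals ranged from 16266282 to 25353113, and counting error at low counts limits the genes near 0. The standard errors given were computed from the log2 fold change and the F statistic of the quasi-likelihood test, whose dispersion is moderated over all genes tested. They are not the spread of the 2 libraries per condition alone.

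The members and the lists of other pathway genes and markers were chosen with earlier results of these data known. Values per library are given for members at 1 CPM or more in both libraries of a condition or called. Fold changes with errors are given for members called, the 3 largest others with a mean of at least 100 counts, and the 5 highest and 3 lowest per length in Hep3B. Tried as alternatives were upper-quartile or median-of-ratios factors, dropping the filter or asking for 10 counts in each library, DESeq2 1.42.0, robust glmQLFit, a fit of all 8 libraries, the library number as a block, offsets for GC content and length (mgcv 1.9.3) with and without the block, and leaving out each library. With 2 libraries per condition no single library could be tested as an outlier. ChIP-seq data were not analysed here. Values of 1 further pathway gene are not reported here.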

Additional observations from a re-analysis of the deposited data

How the results depend on the processing

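Members called in the knockout comparison, 5 by edgeR, were 3 with at least 10 counts in every library, 13 with DESeq2 and 3 with offsets for GC content and length, and ranged from 0 to 14 when 1 library was left out. All genes called, 849, were 2160 with DESeq2, 518 with the stricter filter, 541 with GC offsets, 438 in the fit of all 8 libraries and 21 to 2298 with a library left out. For the difference of effects, 0 members became 1 with DESeq2 and 0 to 2 with a library left out, and 11 genes became 162 with DESeq2, 58 with GC offsets, 5 with upper-quartile factors, 1 with the stricter filter and 0 to 127 with a library left out. The count of 0 members in the siRNA comparison was also 0 for each library left out. A fit without a library leaves 1 in a condition, assumed to vary like the others.

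The libraries share only the numbers 1 and 2. The correlation over genes of the log2 differences between libraries 2 and 1 of the control and the treated condition was -0.0849 in the knockout and 0.873 in the siRNA table. With the number as a replicate block, 11 members were called in the knockout comparison (982 genes), 0 in the siRNA comparison (62 genes) and 2 for the difference (97 genes), SERPIND1 and SERPINF2. With the block and GC offsets these were 5 (261 genes), 4 (377 genes), which were FGB, FGG, KNG1 and SERPINF2, and 1 (39 genes), SERPIND1. The cause of these changes was not tested. The log2 fold change of SERPINC1 was -0.0067 with the block, and that of PLAU was 0.23 with the block and 0.19 with block and offsets, against 0.42 and -0.89.

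With a library left out, the log2 fold change ranged from -0.25 to 2.23 for F3, -0.54 to 1.12 for FGA, -2.81 to 1.73 for SERPINC1, -0.47 to 1.33 for TFPI, -1.87 to 3.52 for PLAU and -0.53 to 0.23 for PLAUR in the knockout comparison, and with siRNA from -0.096 to 1.5 for SERPINF2, -0.077 to 0.96 for F10 and -0.022 to 0.93 for KNG1. The other 23 members tested in the knockout comparison kept their direction with each library left out. Genes of few counts, such as SERPINC1, HRG in Hep3B and THBD, are limited by depth.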
